A study of Mus musculus with 9 samples.

Results

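The genes described here are those of the Wnt pathway, from ligands and receptors to inhibitors and feedback targets, in mouse mammary tumour cells with and without Sox10. They were chosen by symbol: every row of the count file whose symbol began with Wnt, Fzd, Sfrp or Dkk and a digit, together with Axin1, Axin2, Nkd1, Nkd2, Lef1, Tcf7, Tcf7l1, Tcf7l2, Lgr4, Lgr5, Lgr6, Rnf43, Znrf3, Apc, Lrp5, Lrp6, Porcn, Wls, Notum and Wif1. This gave 58 of 24594 gene rows, and no measured value entered the choice. One of them, Fzd10os, is an RNA on the strand opposite Fzd10 and no receptor. After a filter on low counts 35 of the 58 could be tested, among 13928 genes tested in all.

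The cells were BG2, a line of mammary epithelial cells from an end-stage tumour of the MMTV-NIC mouse. In that model the promoter of the mouse mammary tumour virus drives the oncogene Neu (ErbB2) and, from the same transcript, the recombinase Cre. Polyadenylated RNA was sequenced from 3 groups of 3 technical replicates, all of which carried this transgene. The control was the wild-type population in bulk by its titles, and the sample descriptions label it NTC. Clone 1 and clone 2 were each expanded from a population edited by CRISPR with guides against the coding sequence of Sox10, an HMG-box factor of neural crest lineages and mammary progenitors. No treatment, time or animal age was given in the labels. Each knockout group was thus 1 clone, and the loss of Sox10 cannot be told apart from other traits of that clone. Because the replicates are technical, p-values measure the spread among these libraries alone and say nothing of variation among cultures or clones.

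Each library held 65805296 to 83282841 counts. Sox10 had 16660 to 26038 counts in the control libraries and at most 6 in a library of either clone. Replicate 1 stood apart from the other replicates in all groups, and leaving it out of all 3 ended no call of a Wnt pathway gene named here. The labels call the cells mammary epithelial, and the luminal keratins Krt8 and Krt18 were present in every group. Epcam, an epithelial adhesion gene, averaged 0.0341 CPM in clone 1 and had 0 counts in clone 2. The 8 luminal markers summed to 5262.5 to 6256.4 CPM (counts relative to library size, scaled by TMM) in the control, 1192.8 to 1349.1 in clone 1 and 1448.3 to 1627.5 in clone 2. Of 7 luminal markers tested, 6 fell in each clone. The 8 basal markers summed to 3.63 to 5.73 CPM in the control, 25.3 to 27.5 in clone 1 and 137 to 148 in clone 2. Of 7 basal markers tested, 6 were higher in clone 1 and 5 in clone 2, and none was lower. Krt14 carried nearly all of the clone 2 sum (135 CPM), whereas Trp63 was higher in clone 1 (12.2 CPM) than in clone 2 (0.786 CPM), and Cnn1 was called in neither clone. The 8 fibroblast markers summed to 30.3 to 35.9 CPM in the control, 217 to 223 in clone 1 and 136 to 150.1 in clone 2. Pdgfra and Pdgfrb made up most of the fibroblast sum, Lum and Thy1 had 0 counts everywhere, and 5 of 5 tested were higher in clone 1 and 4 in clone 2. Of the 4 endothelial markers only Kdr could be tested and was higher in both clones, the sum reaching 15.3 to 17.3 CPM in clone 1 and at most 0.953 CPM in clone 2. The 6 immune markers summed to 7.24 to 12.4 CPM in the control, 9.34 to 11 in clone 1 and 37.9 to 39.8 in clone 2, where Cd68 made up nearly all of it. Csf1r was lower in both clones, Ptprc had 0 counts in both, and Cd3e had 0 counts everywhere. The 4 adipocyte markers summed to 0.554 to 0.729 CPM in the control, 3.44 to 4.4 in clone 1 and 7.93 to 9.9 in clone 2. Only Fabp4 among them could be tested, and it was higher in both clones. The part that these marker changes have in the Wnt results was not tested. In bulk RNA, fewer cells that express a gene and less RNA per cell cannot be told apart.

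Wnt proteins are secreted signals that carry a lipid added by Porcn and are brought to the cell surface by Wls. On the receiving cell they bind a Frizzled receptor with the co-receptor Lrp5 or Lrp6, which stops a complex built on Axin and Apc from destroying beta-catenin. Beta-catenin then joins TCF/LEF factors on DNA and raises feedback genes such as Axin2, Nkd1, Lgr5, Rnf43, Znrf3 and Notum. In the mammary gland Wnt4 acts downstream of progesterone, and Wnt signals maintain stem and progenitor cells.

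Most of the Wnt genes with enough counts were called against the control in each clone, some higher and some lower, with larger changes than the typical gene. In clone 1, 29 of 35 passed (edgeR, adjusted p under 0.05), 16 higher and 13 lower. That is 82.9% of the members tested beside 76.5% of all genes tested, so the share called lay near the background, as did the higher calls (45.7% beside 37.9%) and the lower calls (37.1% beside 38.6%). In clone 2 the count was also 29, 15 higher and 14 lower, with 82.9% called beside a background of 74.4%, made up of 37.3% higher and 37.1% lower. The median absolute log2 fold change of the 35 was 1.29 in clone 1 and 1.19 in clone 2, beside 0.62 and 0.58 over all genes tested. The signed medians were 0.07 and 0.14, beside 0.0 over all genes tested. Against a change of more than 2-fold (glmTreat, log2 fold change above 1), 18 of 35 passed in each clone, 51.4% beside backgrounds of 25.7% and 24.3%. These shares cover only members that passed the filter, and some passed through a single group, which favours large differences. The 2 comparisons share the control libraries, so their similarity is not independent evidence.

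**Figure D1:**
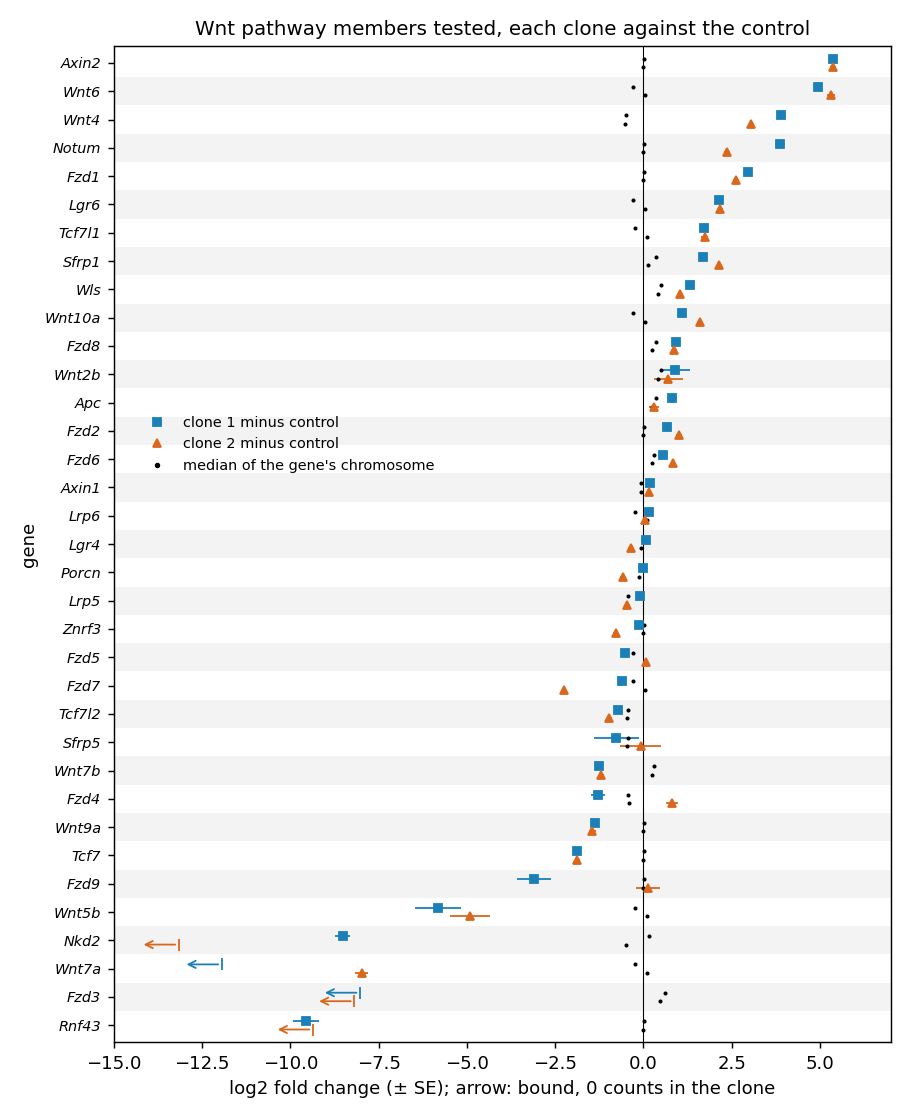
Log2 fold change (± standard error) of the 35 Wnt pathway genes tested, clone 1 (squares) and clone 2 (triangles) against the control, with the median of each gene's chromosome as a small dot. Arrows start at the bound allowed by 3 counts where a clone had 0 counts, and the genes run from Axin2 at the top, 5.36 and 5.38, to Rnf43 at the bottom.

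The 250 bases upstream of the annotated start are shown for the genes with the largest rises and falls called in both clones, so that the regions next to the measured changes can be read. Promoters came from RefSeq on GRCm38.p6, which matched 37 of the 58 genes, and the choice was limited to tested genes with 1 start and no annotated exon in the window. These limits left out genes that fell further than Fzd7 in both clones, such as Rnf43 and Wnt7a. Axin2 (chr11:108920099-108920348, plus strand) and Wnt6 (chr1:74771642-74771891, plus strand) rose, and Nkd2 (chr13:73847632-73847881, minus strand) and Fzd7 (chr1:59481897-59482146, plus strand) fell. The annotated spans of Axin2 and Wnt6 begin upstream of the starts used here, so these windows lie inside the spans. Each sequence runs 5′ to 3′ on the gene's strand, and capitals mark CpG dinucleotides, of which Axin2 had 24, Wnt6 28, Nkd2 14 and Fzd7 17.
Axin2: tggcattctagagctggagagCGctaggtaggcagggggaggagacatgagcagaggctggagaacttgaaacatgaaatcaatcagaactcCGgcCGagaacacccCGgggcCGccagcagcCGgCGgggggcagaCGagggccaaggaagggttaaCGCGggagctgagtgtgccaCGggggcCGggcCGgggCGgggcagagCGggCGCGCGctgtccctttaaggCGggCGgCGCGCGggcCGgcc
Wnt6: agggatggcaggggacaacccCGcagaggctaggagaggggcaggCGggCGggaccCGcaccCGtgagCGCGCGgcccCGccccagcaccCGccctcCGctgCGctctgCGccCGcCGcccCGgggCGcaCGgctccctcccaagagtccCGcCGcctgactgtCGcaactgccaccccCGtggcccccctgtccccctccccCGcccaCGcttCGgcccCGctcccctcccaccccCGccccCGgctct
Nkd2: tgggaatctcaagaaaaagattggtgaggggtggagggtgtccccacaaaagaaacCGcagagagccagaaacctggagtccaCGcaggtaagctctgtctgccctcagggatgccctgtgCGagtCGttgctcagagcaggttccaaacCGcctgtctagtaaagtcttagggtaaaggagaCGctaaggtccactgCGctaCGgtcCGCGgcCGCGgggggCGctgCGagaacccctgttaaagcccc
Fzd7: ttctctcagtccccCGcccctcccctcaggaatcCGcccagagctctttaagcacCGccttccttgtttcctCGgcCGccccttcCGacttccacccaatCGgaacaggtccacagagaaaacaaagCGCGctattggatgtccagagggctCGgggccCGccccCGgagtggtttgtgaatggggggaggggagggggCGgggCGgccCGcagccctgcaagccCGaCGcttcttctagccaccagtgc

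Promoters of the tested members held more CpG by median than those of all genes in the count file. Over the 26 starts of 21 tested members the median was 20.5 CpG, beside 10 over the 22110 starts of 18386 genes in the count file. Over the 46 starts of all 37 members matched it was 16. The quartiles over all genes in the file were 3 and 19. Axin2 and Wnt6 lay above these quartiles, and Nkd2 and Fzd7 lay between them. Members that rose and members that fell were not compared in CpG. The background, also used for the letters below, includes genes too low to test. No value was computed for tested genes alone. The TCF/LEF letters CTTTGAA or CTTTGAT, read on both strands, stood in 1 of the 26 windows (3.85%) and in 6.83% of all windows. The SOX letters ACAAAG or ACAATG, read on both strands, stood in 6 of 26 (23.1%) and in 22.7% of all windows. No match of one set can also be a match of the other at the same bases. Among the sequences shown, only Fzd7 held a SOX match and none held a TCF/LEF match. A match describes letters in the window and is no evidence of binding.

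Among the 19 ligands the control cells made chiefly Wnt7b and Wnt10a, and both clones changed the mix. Of 8 ligands tested, 3 rose (Wnt10a, Wnt4, Wnt6) and 4 fell (Wnt7b, Wnt7a, Wnt9a, Wnt5b) in each clone, where 28.7% of all genes tested were called higher in both clones and 29.4% lower in both. Wnt7b, a ligand of the mammary epithelium (chr15:85535437-85581821), had 817, 894 and 936 CPM in the control libraries, 346, 373 and 381 in clone 1, and 361, 399.9 and 396 in clone 2. All libraries of the clones lay below all control libraries, and the clones overlapped each other. The log2 fold change was -1.27 ± 0.07 in clone 1 (SE, adjusted p = 9.02e-09, edgeR) and -1.19 ± 0.07 in clone 2 (adjusted p = 1.57e-08). Wnt10a, a ligand of epithelial appendages (chr1:74792019-74804176), had 221, 239 and 247 CPM in the control, against 477, 499.8 and 518 for clone 1 and 679, 730.4 and 721 for clone 2. The groups stood in 3 separate steps, lowest in the control and highest in clone 2. Its log2 fold changes were 1.08 ± 0.06 (adjusted p = 1.09e-08) and 1.59 ± 0.06 (adjusted p = 4.3e-10). The test for a change of more than 2-fold ended the Wnt10a call in clone 1 (adjusted p = 0.112).

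Wnt6, the neighbour of Wnt10a on chromosome 1 with 6696 bases between them, rose further. It had 1.52, 1.15 and 1.22 CPM in the control, against 36.1, 40.2 and 43.5 for clone 1 and 50.2, 52.9 and 50.6 for clone 2. Again the groups did not overlap, and clone 2 was the highest. Log2 fold changes were 4.95 ± 0.11 (adjusted p = 8.07e-12) and 5.31 ± 0.11 (adjusted p = 5.16e-12), and the difference between the clones was 0.36 ± 0.08 (adjusted p = 0.00384). For Wnt10a that difference was 0.51 ± 0.06 (adjusted p = 1.66e-05, edgeR). The median gene of their chromosome 1 differed between the clones by 0.33, also higher in clone 2. The part of that shift in these 2 differences was not tested. Wnt4, the ligand linked to progesterone, had 4.49, 5.52 and 5.24 CPM in the control, against 74.3, 77.9 and 77.8 for clone 1 and 39.9, 44.0 and 43.7 for clone 2. Here clone 1 was above clone 2, by a log2 difference of -0.85 ± 0.07 for clone 2 minus clone 1 (adjusted p = 2.08e-06).

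Wnt7a, the ligand most like Wnt7b, was nearly lost from both clones. It had 52.0, 58.5 and 56.8 CPM in the control, 0 counts in all clone 1 libraries, and 0.192, 0.132 and 0.332 CPM in clone 2. Clone 1 was at least 3947.4-fold lower than the control, taking 3 counts over the group as the floor (adjusted p = 2.39e-10). Clone 2 was 255-fold lower (95% counting interval 194 to 341), a log2 fold change of -7.98 ± 0.19 (adjusted p = 3.59e-10). Counting intervals and floors cover counting error only.

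Wnt9a had 23.7, 29.6 and 31.2 CPM in the control, against 10.9, 10.9 and 10.7 for clone 1 and 9.78, 10.4 and 10.8 for clone 2. All clone libraries lay below the control, and the clones overlapped. The log2 fold changes were -1.38 ± 0.10 (adjusted p = 1.96e-07) and -1.45 ± 0.10 (adjusted p = 1.32e-07). Wnt5b, a ligand of signalling without beta-catenin, was low throughout, with 0.939 to 2.22 CPM in the control, at most 0.0607 CPM in clone 1 and at most 0.096 CPM in clone 2. It fell by 5.82 ± 0.64 and 4.92 ± 0.56 on the log2 scale (adjusted p = 6.33e-06 and 9.3e-06). Wnt2b stood between 0.0989 and 0.472 CPM in all libraries and passed in neither clone (log2 fold changes 0.90 ± 0.42 and 0.71 ± 0.42), though leaving out control replicate 2 brought clone 1 past the threshold at 1.22 (adjusted p = 0.0397).

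**Figure D2:**
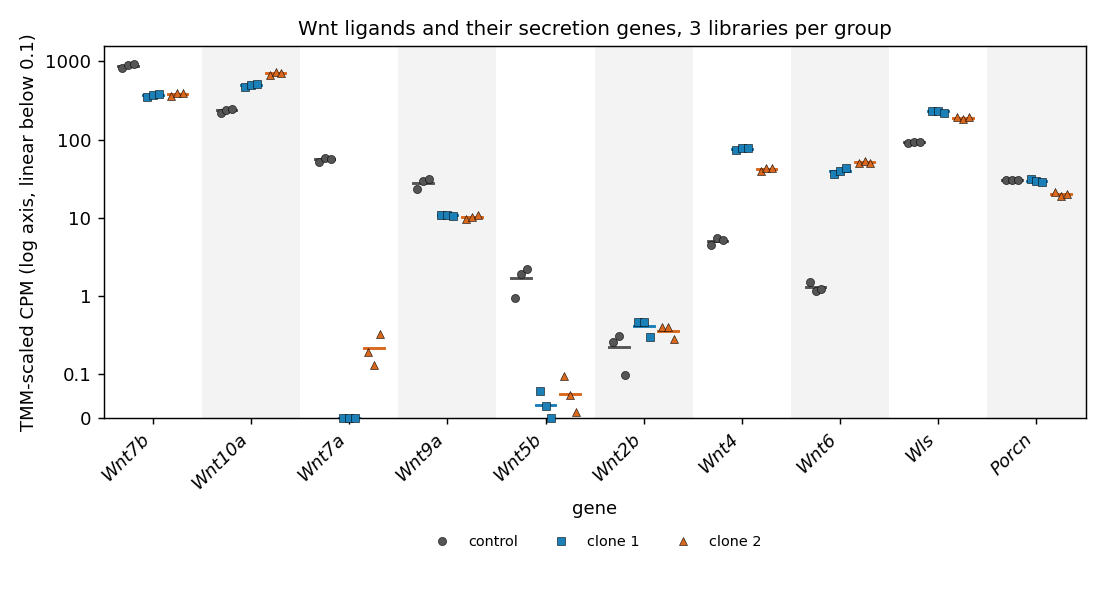
TMM-scaled CPM of the 8 Wnt ligands tested and of Wls and Porcn in each of the 9 libraries (points) with group means (lines), on an axis that is logarithmic above 0.1 and linear below it. Wnt7b and Wnt10a are the highest in every group, Wnt4 and Wnt6 are above the control in both clones, and Wnt7a is at or near 0 in both.

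Divided by exon length, these levels give the make-up of the ligand transcripts. Wnt7b made up 59.2 ± 0.248% of the summed ligand level per kb in the control, 23.6 ± 0.214% in clone 1 and 19.5 ± 0.294% in clone 2 (SD, n = 3 each). Wnt10a went the other way, with 31.4 ± 0.271%, 63.7 ± 0.294% and 71.4 ± 0.183%. The leading ligand transcript was thus Wnt7b in the control and Wnt10a in each clone. Wnt4 held 0.398 ± 0.024%, 5.78 ± 0.13% and 2.51 ± 0.0338% of the sum, and Wnt6 held 0.196 ± 0.0426%, 5.75 ± 0.287% and 5.80 ± 0.169%. Wnt7a held 5.78 ± 0.195% in the control, and Wnt9a held 2.77 ± 0.219%, 1.03 ± 0.0524% and 0.77 ± 0.0187%. The summed level itself changed less than its parts, at 304 ± 20.2 CPM per kb in the control, 317 ± 14.1 in clone 1 and 403 ± 16.8 in clone 2. The libraries of the control (282 to 321) and of clone 1 (301 to 329) overlapped in this sum, and those of clone 2 (384 to 416) lay above both. These shares are descriptions and were not tested.

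**Figure D3:**
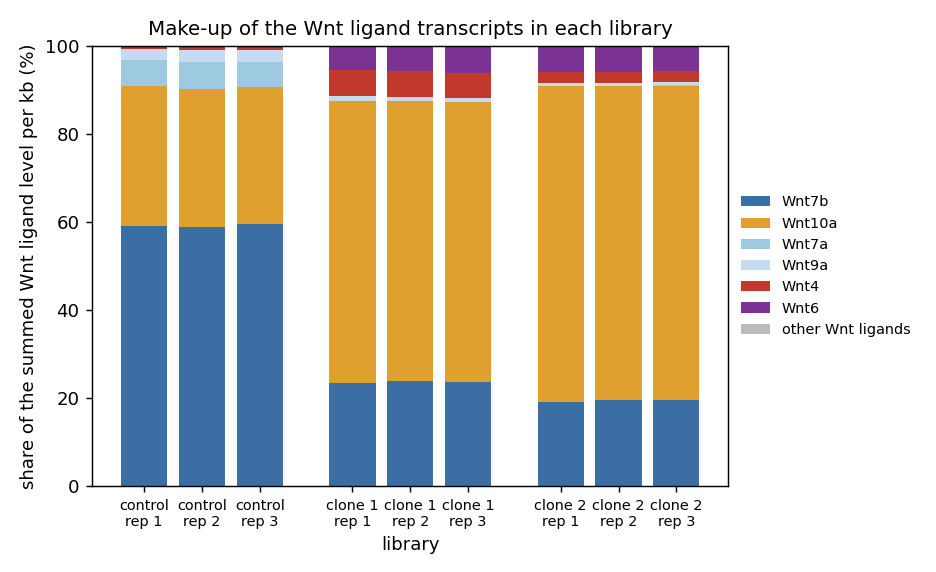
Share of each Wnt ligand in the summed ligand level (CPM per kb of exon, %), 1 stacked bar per library. Wnt7b fills 59.2% of the control bars on average and Wnt10a 63.7% and 71.4% of the bars of clone 1 and clone 2, with bands for Wnt4 and Wnt6 only thinly visible in the control.

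The other ligands were at or near 0. Wnt2, Wnt3a, Wnt8a, Wnt8b and Wnt9b had 0 counts in every library, and Wnt3, Wnt10b and Wnt11 had at most 2 counts in any library. Wnt1, the first mammary oncogene of the family, had 0 counts in the control, against 18, 14 and 6 for clone 1 and 0, 4 and 0 for clone 2. Clone 1 was at least 13.4-fold higher than the control by its counts, but the gene was too low to test. Wnt5a showed the opposite, with 20, 6 and 28 counts in the control and 0 in every clone library, at least 17.0-fold and 19.0-fold lower. Wnt16 had 6, 0 and 2 counts in the control and 0 in the clones.

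The genes for ligand release moved unevenly. Wls, the carrier of Wnt proteins, had 90.8, 94.0 and 93.6 CPM in the control, against 233, 235 and 220.5 for clone 1 and 195, 182 and 192 for clone 2. Both clones lay above the control without overlap. It rose by log2 fold changes of 1.31 ± 0.05 (adjusted p = 3.86e-10) and 1.03 ± 0.05 (adjusted p = 3.02e-09). The median gene of its chromosome 3 was also higher, by 0.51 and 0.41, and the call in clone 2 was lost against a change of more than 2-fold (adjusted p = 0.379). Porcn, the acyltransferase, had log2 fold changes of -0.02 ± 0.06 (adjusted p = 0.757) and -0.59 ± 0.07 (adjusted p = 6.58e-06), and the clones differed by -0.57 ± 0.07 (adjusted p = 2.15e-05).

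Of the 10 Frizzleds and the 2 co-receptors, 11 were tested. Clone 1 had 5 higher and 5 lower, and clone 2 had 5 higher and 3 lower, where 37.9% and 38.6% of all genes tested were called higher and lower in clone 1 and 37.3% and 37.1% in clone 2. Fzd1 (chr5:4753839-4758216) rose most, with 14.8, 14.7 and 17.3 CPM in the control, against 123, 124 and 122 for clone 1 and 93.9, 95.8 and 99.0 for clone 2. The groups formed separate steps, with clone 1 the highest. Log2 fold changes were 2.97 ± 0.07 (adjusted p = 8.47e-12) and 2.62 ± 0.07 (adjusted p = 2.08e-11), that is 7.83-fold and 6.14-fold by summed counts.

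Fzd7, a receptor linked to mammary stem cells, fell in both clones and further in clone 2. It had 41.2, 42.5 and 43.5 CPM in the control, against 27.5, 27.3 and 29.1 for clone 1 and 9.31, 8.78 and 8.84 for clone 2. No group overlapped another. The log2 fold changes were -0.60 ± 0.06 (adjusted p = 2.3e-06) and -2.24 ± 0.06 (adjusted p = 4.31e-11). Chromosome 1, which holds Fzd7, had a median of -0.29 in clone 1 and 0.05 in clone 2, and the clone 1 call did not pass against a change of more than 2-fold. The clones differed by -1.64 ± 0.06 (adjusted p = 4.18e-09).

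Fzd4, a receptor for Wnts and for norrin, was the 1 member of 35 called in opposite directions (2.86%), beside 4.79% of all genes tested. It had 3.32, 3.19 and 2.34 CPM in the control, against 1.08, 1.5 and 1.03 for clone 1 and 4.8, 5.07 and 5.71 for clone 2. Clone 1 lay wholly below and clone 2 wholly above the control. The log2 fold changes were -1.29 ± 0.19 (adjusted p = 7.86e-05) and 0.82 ± 0.17 (adjusted p = 0.00124), and neither passed against a change of more than 2-fold. The difference between the clones, 2.11 ± 0.19 (adjusted p = 3.19e-06), did pass it.

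Fzd3, a receptor of planar polarity, was lost from both clones, with 3.9, 3.73 and 3.47 CPM in the control and 0 counts in all 6 clone libraries. The bounds are at least 261-fold lower for clone 1 and 292-fold for clone 2 (adjusted p = 4.43e-07 and 4e-07). Fzd9 fell only in clone 1, from 0.659 ± 0.126 CPM in the control to 0.0746 ± 0.0423 CPM, a log2 fold change of -3.10 ± 0.47 (adjusted p = 8.77e-05). In clone 2 it stood at 0.726 ± 0.284 CPM (log2 fold change 0.14 ± 0.34, adjusted p = 0.73), and the clones differed by 3.24 ± 0.46 (adjusted p = 0.000119).

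The remaining Frizzleds tested changed by about 2-fold or less. Fzd2 rose by 0.68 ± 0.08 and 1.00 ± 0.08 on the log2 scale, Fzd6 by 0.56 ± 0.05 and 0.84 ± 0.05, and Fzd8 by 0.93 ± 0.07 and 0.88 ± 0.07. None of these passed against a change of more than 2-fold. Fzd5 fell in clone 1 by 0.52 ± 0.08 and had a log2 fold change of 0.06 ± 0.08 in clone 2 (adjusted p = 0.544). Lrp5 had log2 fold changes of -0.10 ± 0.06 (adjusted p = 0.187) and -0.47 ± 0.06 (adjusted p = 3.83e-05), where the median gene of its chromosome 19 lay at -0.45 and -0.46. In clone 1 Lrp5 passed without replicate 1 of all 3 groups (-0.11, adjusted p = 0.0199). Lrp6 had 0.17 ± 0.06 (adjusted p = 0.0252) and 0.05 ± 0.06 (adjusted p = 0.492). The Lrp6 call in clone 1 was lost with total counts for scaling (0.16) or without control replicate 2 (0.13), control replicate 3 (0.15) or clone 1 replicate 1 (0.14). Fzd10 and Fzd10os had 0 counts in every library.

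Per kb of exon, the summed Frizzled level was 40.1 ± 1.85 CPM in the control, 74.1 ± 1.24 in clone 1 and 72.8 ± 2.77 in clone 2. Fzd1 made up 9.27 ± 0.568% of it in the control, 39.5 ± 0.847% in clone 1 and 31.5 ± 0.378% in clone 2. Fzd7 made up 23.4 ± 0.471%, 8.33 ± 0.256% and 2.72 ± 0.185%. In the control Fzd2, Fzd6 and Fzd7 each held more than 20% of the level, and in both clones Fzd1 was the largest single share.

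**Figure D4:**
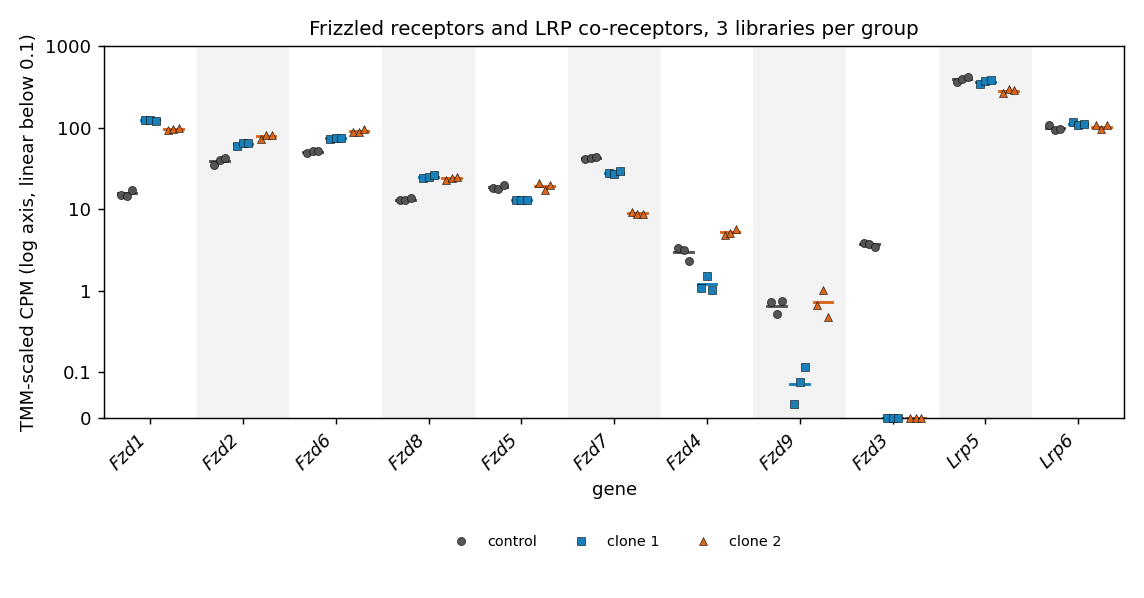
TMM-scaled CPM of the 9 Frizzleds tested and of Lrp5 and Lrp6 in each of the 9 libraries (points) with group means (lines), on an axis that is logarithmic above 0.1 and linear below it. Fzd1 is above the control in both clones, Fzd4 lies below it in clone 1 and above it in clone 2, and Fzd3 is at 0 in both clones.

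Of the 10 secreted antagonists only Notum, Sfrp1 and Sfrp5 had enough counts to test. Notum, an enzyme that removes the lipid from Wnt proteins and is itself a target of the pathway, rose in both clones and more in clone 1. It had 9.46, 10.6 and 12.7 CPM in the control, against 153, 163 and 165 for clone 1 and 54.5, 58.4 and 56.5 for clone 2. The groups did not overlap. Log2 fold changes were 3.88 ± 0.10 (adjusted p = 1.72e-11) and 2.37 ± 0.09 (adjusted p = 7.23e-10), and the clones differed by -1.51 ± 0.09 (adjusted p = 9.34e-08). Sfrp1, which binds Wnts outside the cell, had 45, 47.6 and 47.7 CPM in the control, against 151, 147 and 153 for clone 1 and 204, 201 and 214 for clone 2. These groups also formed separate steps, with clone 2 the highest. It rose by log2 fold changes of 1.68 ± 0.05 (adjusted p = 5.09e-11) and 2.14 ± 0.05 (adjusted p = 7.8e-12).

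Sfrp5 stayed between 0.0287 and 0.159 CPM and passed in neither clone (log2 fold changes -0.77 ± 0.64 and -0.07 ± 0.58). Dkk1, Dkk2, Dkk4, Sfrp2, Sfrp4 and Wif1 had 0 counts in every library, and Dkk3 had at most 6 counts in a library. Notum and Sfrp1 thus supplied nearly all transcripts of the 10 antagonists chosen by symbol. The summed level of these per kb was 15.3 ± 0.974 CPM in the control, 101 ± 2.67 in clone 1 and 70.7 ± 1.68 in clone 2. Other secreted modulators are outside this sum, such as Igfbp4 at 58.2, 54.0 and 31.9 CPM per kb in the control, clone 1 and clone 2. Notum led in clone 1, with 65.9 ± 0.916% of the sum, and Sfrp1 led in the control (70.1 ± 2.54%) and in clone 2 (66.7 ± 1.18%).

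The feedback targets of beta-catenin went in both directions. Axin2, the scaffold often read as the target of the pathway (chr11:108917828-108950783; its promoter is printed above), had 2.56, 2.65 and 3.37 CPM in the control, against 117, 117 and 120.3 for clone 1 and 118, 119.7 and 121 for clone 2. Both clones lay far above the control and overlapped each other. Log2 fold changes were 5.36 ± 0.09 (adjusted p = 1.2e-12) and 5.38 ± 0.09 (adjusted p = 1.31e-12), or 41.0-fold and 41.5-fold by summed counts. The difference between the clones was 0.02 ± 0.07 (adjusted p = 0.851).

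Nkd2, a protein that binds Dishevelled, moved the other way. It had 99.7, 118 and 128 CPM in the control, 0.303, 0.184 and 0.459 in clone 1, and 0 counts in clone 2. Clone 1 was 372-fold lower (95% counting interval 293 to 482, adjusted p = 3.8e-10) and clone 2 at least 9165.5-fold lower (adjusted p = 2.25e-10). Nkd1, its relative and a target of the pathway, had 1 count in 1 library of clone 1 and 0 in all others.

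Rnf43 and Znrf3, enzymes that remove Frizzled from the cell surface, differed in the size of their change. Rnf43 had 7.93, 8.73 and 8.29 CPM in the control, 0, 0 and 0.0287 in clone 1, and 0 counts in clone 2. Clone 1 was 882-fold lower (95% counting interval 244 to 7290.6, adjusted p = 1.15e-08) and clone 2 at least 658-fold lower (adjusted p = 9.04e-09). Znrf3 had 27.1, 26.1 and 25.2 CPM in the control, against 24.6, 23.0 and 24.0 for clone 1 and 15.2, 13.9 and 16.2 for clone 2. Its log2 fold change was -0.13 ± 0.07 in clone 1 (adjusted p = 0.12) and -0.79 ± 0.07 in clone 2 (adjusted p = 1.38e-06), and the latter did not pass against a change of more than 2-fold.

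Of the receptors for R-spondins, Lgr6 rose and Lgr5 was not detected. Lgr6 had 16.7, 18.4 and 16.5 CPM in the control, against 71.7, 80.0 and 76.4 for clone 1 and 71.9, 79.9 and 82.0 for clone 2. The clones overlapped each other and lay above the control, with log2 fold changes of 2.14 ± 0.07 (adjusted p = 2.36e-10) and 2.18 ± 0.07 (adjusted p = 2.1e-10). Lgr4 had log2 fold changes of 0.07 ± 0.08 (adjusted p = 0.448) and -0.36 ± 0.08 (adjusted p = 0.00179). Lgr5, a target and stem cell marker, had 0 counts in every library, which allows up to 0.0134 CPM in the control, 0.0142 in clone 1 and 0.0127 in clone 2 by counting error alone.

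Of the TCF/LEF factors, Tcf7 and Tcf7l2 fell and Tcf7l1 rose in each clone. Tcf7, both a factor and a target of the pathway, had 35.1, 36.4 and 38.2 CPM in the control, against 10.2, 9.5 and 9.96 for clone 1 and 9.76, 10.7 and 9.52 for clone 2. All clone libraries lay below the control and the clones overlapped. The log2 fold changes were -1.89 ± 0.07 (adjusted p = 7.23e-10) and -1.87 ± 0.07 (adjusted p = 7.92e-10). Tcf7l1, a member known mostly as a repressor, had 1.86, 1.95 and 1.99 CPM in the control, against 6.13, 6.74 and 6.26 for clone 1 and 6.28, 6.65 and 6.44 for clone 2. The clones overlapped each other above the control, with log2 fold changes of 1.72 ± 0.10 (adjusted p = 3.16e-08) and 1.74 ± 0.10 (adjusted p = 2.99e-08). Tcf7l2 fell by 0.73 ± 0.07 and 0.97 ± 0.07 on the log2 scale (adjusted p = 1.27e-06 and 1.18e-07). Its chromosome 19 had medians of -0.45 and -0.46, and neither call passed against a change of more than 2-fold. Lef1 had 1 count in 1 library of clone 2 and 0 in all others. Per kb of exon the family summed to 17.6 ± 0.592 CPM in the control, 7.29 ± 0.111 in clone 1 and 7.06 ± 0.203 in clone 2. Tcf7 made up 79.2 ± 0.689%, 51.6 ± 1.16% and 53.8 ± 1.88% of this level, and Tcf7l1 2.80 ± 0.0346%, 22.3 ± 1.47% and 23.3 ± 0.235%.

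Axin1 and Apc, the other scaffolds of the destruction complex, changed by less than 2-fold. Axin1 had log2 fold changes of 0.19 ± 0.05 (adjusted p = 0.00855) and 0.16 ± 0.05 (adjusted p = 0.0217). The Axin1 call in clone 2 was lost in DESeq2 (0.14, adjusted p = 0.078), with DESeq2 size factors (0.14), under a stricter filter (0.12), and without control replicate 1 (0.09), control replicate 3 (0.16), clone 2 replicate 2 (0.11) or clone 2 replicate 3 (0.14). Apc rose in clone 1, by 0.82 ± 0.13 (adjusted p = 0.000119), and had 0.30 ± 0.13 in clone 2 (adjusted p = 0.0539). In clone 2 Apc passed in DESeq2 (0.27, adjusted p = 0.0379), without a low-count filter (0.29), with only the groups compared in the fit (0.30), without replicate 1 of all 3 groups (0.23), and without control replicate 1 (0.34), clone 1 replicate 1 (0.30), clone 1 replicate 2 (0.30) or clone 2 replicate 2 (0.37).

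**Figure D5:**
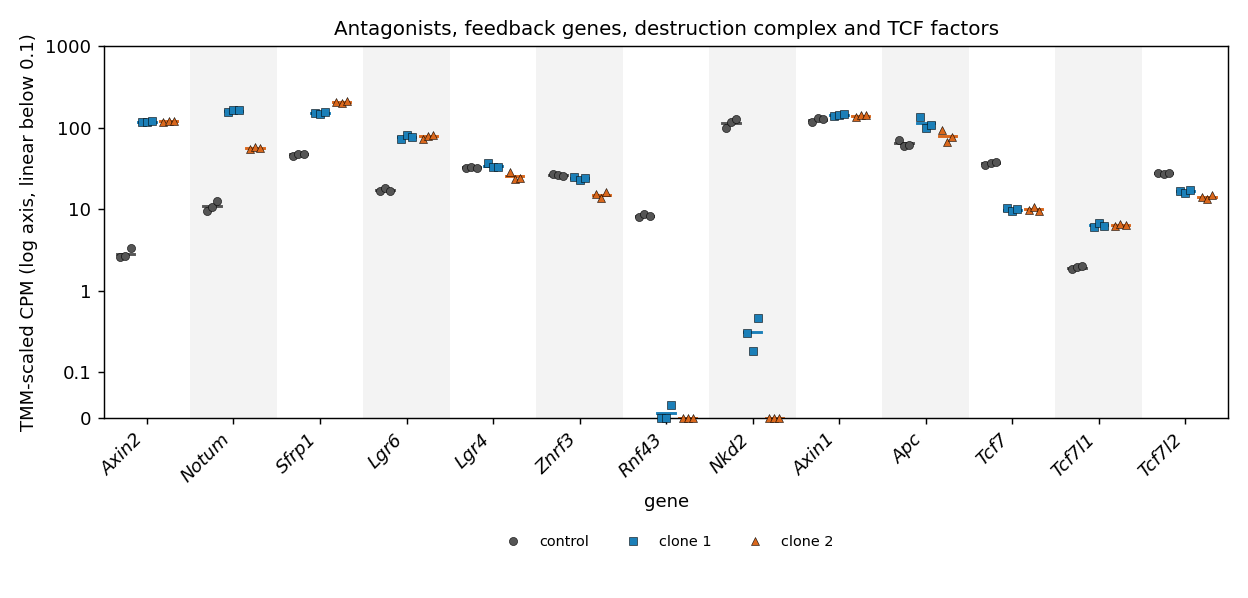
TMM-scaled CPM of the antagonists, feedback genes, destruction complex genes and TCF factors in each of the 9 libraries (points) with group means (lines), on an axis that is logarithmic above 0.1 and linear below it. Axin2, Notum, Sfrp1 and Lgr6 are above the control in both clones, while Nkd2 and Rnf43 are at or near 0 there.

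Between the clones, 21 of the 35 genes differed (clone 2 minus clone 1, edgeR), 9 higher and 12 lower in clone 2. That is 60% beside a background of 57.6%, with 30.1% of all genes higher and 27.5% lower. Against a difference of more than 2-fold, 6 passed, 17.1% beside 8.52% of all genes (4.67% higher and 3.84% lower): Wnt7a, Fzd4 and Fzd9 were higher in clone 2, and Nkd2, Fzd7 and Notum higher in clone 1. The median absolute log2 difference between the clones was 0.38, beside 0.35 over all genes tested. Axin2, Lgr6, Tcf7, Tcf7l1, Wnt7b, Wnt9a, Fzd8 and Axin1 were among those with no call between the clones.

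Other genes of the pathway, from lists that leave out the members above, were also called in both directions. The counts that follow stand beside backgrounds of 37.9% of all genes tested higher and 38.6% lower in clone 1, and 37.3% higher and 37.1% lower in clone 2. With 8 to 18 genes tested, no list is read as set apart from that background. Of 18 intracellular transducers, all tested, 7 were higher and 9 lower in clone 1, and 7 were higher and 8 lower in clone 2, near the 76.5% and 74.4% of all genes called. Their summed level was at 2853.5 to 2909.2 CPM in the control, 2904.6 to 2953.1 in clone 1 and 3011.3 to 3161.7 in clone 2. Dvl1, a Dishevelled, had log2 fold changes of -0.63 ± 0.06 and -0.58 ± 0.06, and the kinase gene Gsk3a -0.51 ± 0.06 and -0.53 ± 0.06. Their paralogs Gsk3b, Dvl3 and Dvl2 are added after their values were seen. Gsk3b had 0.48 ± 0.06 and 0.50 ± 0.06, and Dvl3 had 0.11 ± 0.06 (edgeR, adjusted p = 0.127) and 0.51 ± 0.06. Dvl2 had -0.15 ± 0.08 (edgeR, adjusted p = 0.0976) and 0.23 ± 0.08 (adjusted p = 0.0169). The tankyrases, which mark Axin for destruction, parted, with Tnks at 0.50 ± 0.06 and 0.64 ± 0.06 and Tnks2 at -0.61 ± 0.07 and -0.72 ± 0.07. The chromosome medians beside these values were -0.49 and -0.53 for Dvl1, -0.43 and -0.42 for Gsk3a, 0.35 and 0.14 for Tnks, -0.45 and -0.46 for Tnks2, and 0.23 and 0.47 for Gsk3b and Dvl3. None of these 6 genes passed against a change of more than 2-fold. Ctnnb1, the gene of beta-catenin, is given although the rule for named genes left it out and its values had been seen. It stood at 806 ± 17.5 CPM in the control, 928 ± 4.51 in clone 1 and 1138.3 ± 30.2 in clone 2 (log2 fold changes 0.20 ± 0.04 and 0.50 ± 0.04). The medians of its chromosome 9 were 0.09 and 0.43.

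Of 16 nuclear cofactors, 13 were tested, with 4 higher and 5 lower in each clone, against 76.5% and 74.4% of all genes called in either direction. The Groucho co-repressors, which hold TCF targets off, split. Tle4 had 11.7, 11.7 and 10.4 CPM in the control and 0 counts in all clone libraries, at least 794-fold and 888-fold lower. Tle1 fell by 1.22 ± 0.07 and 1.62 ± 0.07 on the log2 scale. Tle3 rose by 1.34 ± 0.06 and 1.06 ± 0.06, and Tle2 by 1.40 ± 0.12 and 0.72 ± 0.12. Against a change of more than 2-fold, the clone 2 calls of Tle3 (adjusted p = 0.182) and Tle2 (adjusted p = 1.0) were lost. Hbp1, a repressor of TCF activity, was called in opposite directions, at 0.27 ± 0.06 and -0.39 ± 0.06, with chromosome 12 medians of -0.38 and -0.51.

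Of 16 other receptors and planar polarity genes, 13 were tested, with 5 higher and 6 lower in clone 1 and 4 higher and 6 lower in clone 2, beside the same 76.5% and 74.4% of all genes. The polarity cadherins Celsr1 and Celsr2 moved against each other. Celsr1 had 98.7, 109 and 119.7 CPM in the control, against 0.925, 0.551 and 0.401 for clone 1 and 3.44, 3.07 and 2.89 for clone 2 (log2 fold changes -7.46 ± 0.19 and -5.12 ± 0.16). Celsr2 had 0.506, 0.406 and 0.47 CPM in the control, against 13.4, 12.3 and 13.0 for clone 1 and 13.9, 15 and 16.1 for clone 2 (4.81 ± 0.12 and 5.02 ± 0.12). In both cases the control stood wholly apart from the clones. Reck, which helps Wnt7 ligands reach their receptor, rose by 3.46 ± 0.14 and 3.54 ± 0.14. Ryk, a receptor of the tyrosine kinase family that binds Wnts, rose by 1.15 ± 0.05 and 1.06 ± 0.05, the latter lost against a change of more than 2-fold (adjusted p = 0.154).

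Of 20 R-spondins and other secreted or surface modulators, 8 were tested, with 4 higher and 2 lower in clone 1 and 3 higher and 2 lower in clone 2, no larger a share than the 76.5% and 74.4% of all genes. Sulf2, a sulfatase of heparan sulfate, stood at 186 ± 23.2 CPM in the control, 982 ± 48.8 in clone 1 and 669 ± 35.9 in clone 2 (log2 fold changes 2.40 ± 0.09 and 1.85 ± 0.09). Kremen1, a receptor for Dkk proteins, fell by 1.20 ± 0.06 in each clone. Trabd2b, a protease that cuts Wnts, rose by 0.59 ± 0.08 and 0.29 ± 0.08, neither beyond 2-fold. Gpc4, a glypican, was called in opposite directions, with 1.88, 1.8 and 1.98 CPM in the control, against 0, 0 and 0.0143 for clone 1 and 37.1, 39.7 and 39.1 for clone 2. Rspo3, a ligand of the Lgr receptors, fell outside the rule for named genes and was chosen after its values were seen. It had 0.303, 0.135 and 0.321 CPM in the control, against 15.8, 14.9 and 14.0 for clone 1 and 0.384, 0.199 and 0.0255 for clone 2. Clone 1 alone stood apart, by 5.87 ± 0.38 against the control (adjusted p = 7.22e-08) and by -6.17 ± 0.39 for clone 2 minus clone 1 (adjusted p = 2.27e-07).

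Of 20 other reported targets of the pathway, 13 were tested, with 5 higher and 7 lower in clone 1 and 4 higher and 7 lower in clone 2 (all genes: 37.9% and 38.6%, then 37.3% and 37.1%). Ccn5, a secreted matrix protein, stood at 56.8 ± 8.64 CPM in the control, 282 ± 8.85 in clone 1 and 297 ± 9.41 in clone 2 (log2 fold changes 2.31 ± 0.09 and 2.39 ± 0.09). Procr, a receptor that marks mammary stem cells, rose by 0.68 ± 0.09 and 2.17 ± 0.09. Cd44, an adhesion receptor, fell by 0.91 ± 0.04 and 0.74 ± 0.04, and Id2, an inhibitor of helix-loop-helix factors, by 0.38 ± 0.10 and 1.23 ± 0.11. The Cd44 calls, and those of Procr and Id2 in clone 1, were lost against a change of more than 2-fold. Tcf4, a helix-loop-helix factor that shares a name with Tcf7l2, was called at 0.54 ± 0.11 and -0.28 ± 0.12. Its clone 2 call was lost with total counts (-0.29) and without control replicate 1 (-0.23), control replicate 3 (-0.30), clone 1 replicate 2 (-0.28), clone 2 replicate 2 (-0.28) or clone 2 replicate 3 (-0.21).

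Axin2, Notum, Wnt7b, Wnt5a, Tcf7l1, Fzd5 and Fzd6 overlap an annotated gene on the opposite strand. The strand setting of the counting (not given in the sources used here) decides whether their values hold reads of those genes too.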

How the data were processed

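The deposited file holds raw read counts per gene for 9 libraries, made by the authors and not normalized. Per the submitters' processing notes, fastp, Subread and DESeq2 and the builds mm10 and GRCm38 were used; versions, annotation and strand setting were not given in the sources used here. Replicates are technical per the labels, which do not name the step at which they parted. Entrez IDs were matched to RefSeq symbols on GRCm38.p6, and exon lengths came from GENCODE M21 on GRCm38. The 24 rows without a symbol held no more than 0.202% of the counts of any library.

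Counts were fitted in R 4.3.3 with edgeR 4.0.16 (filterByExpr with a minimum count of 10, TMM, quasi-likelihood test, 1 factor of 3 groups), with p-values adjusted over all 13928 genes tested by Benjamini-Hochberg and a threshold of 0.05. The standard error of a log2 fold change is its absolute value over the square root of F. CPM are counts relative to TMM-scaled library size. Alternatives included DESeq2 1.42.0 and glmTreat, a test against a log2 change of 1.

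Values in every library are given for members with a group mean of at least 5 CPM that were called with a log2 change of at least 1 in either clone, for members called in opposite directions by at least 0.5 each, and for 9 feedback targets. Of each other pathway list, up to 4 genes called alike in both clones and up to 2 called in opposite directions are named. Those called alike needed a group mean of at least 5 CPM. Genes were ranked by the smaller absolute change of the 2 clones, largest first, so those named need not be typical of their list. Some members outside this rule are given in full as well. Members, lists and promoters shown were chosen with earlier results of these data known. Of the 25228 values from 1 to 20 in the file, 71.9% were even (2016 ones, 6588 twos); the counting intervals take each count as a separate event and may be too narrow, which was not tested.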

Additional observations from a re-analysis of the deposited data

Results flagged for a closer look

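The clones differed from each other by more than 2-fold for 6 of the Wnt genes (glmTreat on clone 2 minus clone 1, adjusted over all genes tested). Fzd4 differed by a log2 value of 2.11 (adjusted p = 0.000237), with -1.29 in clone 1 and 0.82 in clone 2 against the control. Fzd7 differed by -1.64 (adjusted p = 1.62e-06), with -0.60 and -2.24. Notum differed by -1.51 (adjusted p = 0.000189), with 3.88 and 2.37. Fzd9 differed by 3.24 (adjusted p = 0.00214), at levels of at most 1.03 CPM in a library. Wnt7a had a fitted difference of 7.05 (adjusted p = 0.00155) and Nkd2 of -7.55 (adjusted p = 0.00155). For both, the lower clone had 0 counts, so the fitted value is no bound: Wnt7a was at least 15.5-fold higher in clone 2 and Nkd2 at least 24.6-fold higher in clone 1.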

How the results depend on the processing

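No called result changed direction under another scaling, filter, test, set of samples or left-out library. Requiring a change of more than 2-fold (glmTreat) left 3580 of all genes for clone 1, 3388 for clone 2 and 1186 for the difference of the clones. Of the 35 Wnt members tested, those higher then numbered 9 for clone 1, 9 for clone 2 and 3 for their difference. Those lower numbered 9, 9 and 3. Of all genes tested, 12.6%, 12.2% and 4.67% were then higher, and 13.1%, 12.2% and 3.84% lower. Members higher in both clones went from 14 to 8 and those called in opposite directions from 1 to 0, in comparisons that share the control. Without the 2-fold requirement, 28.7% of all genes tested were higher in both and 4.79% opposite. These shares stand beside the 14 and the 1, and shares under the requirement were not computed. Under the requirement, 11 of the other pathway genes were higher and 9 lower in clone 1, and 7 were higher and 9 lower in clone 2. These came from lists with 8 to 18 genes tested each. The shares of all genes were 12.6% higher and 13.1% lower in clone 1, and 12.2% for each direction in clone 2. Leaving out 1 library at a time gave 15 to 17 members higher and 13 to 14 lower in clone 1, 14 to 16 and 14 to 15 in clone 2, and 9 and 12 to 14 between the clones. Among called changes, subtracting the chromosome median turned Hbp1 in clone 2 to 0.12 and Ctnnb1 between the clones to -0.04. It brought others near 0, among them Id2 in clone 1 (0.0), Lrp5 in clone 2 (-0.01) and Wnt6 between the clones (0.03). In clone 2 these also included Gsk3b (0.03), Dvl3 (0.04) and Dvl1 (-0.05). Of all gene differences followed, called or not, 91 moved in size, 3 reversed and 92 were rated the same.

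With the replicate number as a block, 16 members were higher and 14 lower in clone 1, and 16 and 14 in clone 2. The block ended no call of a named gene and added several, among them Apc in clone 2 (0.29, adjusted p = 5.17e-06) and Lrp5 in clone 1 (-0.10, adjusted p = 0.0198). Across the groups, libraries with the same number had correlated deviations of r = 0.014 to 0.249. Pairs of replicate 1 had 0.214 to 0.249, and other pairs with the same number at most 0.108. Replicate 1 correlated negatively with every library of another number in the other groups, a shared deviation that the main fit does not model. Not every library correlated best with its own number, so the numbers were not taken as a pairing. Leaving replicate 1 out of all 3 groups was chosen after the data had been seen. Genes with few counts, such as Wnt1, Wnt5a and Dkk3, could not be tested at this depth.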
